A study of Mus musculus with 18 samples.

Results

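The p53 response and the machinery of apoptosis were followed in testis RNA through 9 genes: Trp53, Mdm2, Cdkn1a, Gadd45a, Bax, Bcl2, Bcl2l11, Fas and Casp8. The genes were found by symbol in the deposited expression table, and all 9 were among its 20985 genes. A value of 1 or more in 3 or more of the 18 libraries was required for testing, which 7 of the 9 genes and 14164 genes of the whole table met. None of the 7 passed this filter through the STZ libraries alone. Bcl2 and Fas stayed below it and are described by their values and by a fit without the filter.

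p53, the product of Trp53, is a transcription factor that is stabilised after DNA damage and other stresses and switches on genes of cell-cycle arrest, repair and cell death. Its protein level is set largely by breakdown after MDM2 tags it with ubiquitin, so a transcript level is not a measure of p53 activity. Apoptosis runs through mitochondria, where BAX is held back by BCL-2 and released by BH3-only proteins such as BIM, or through death receptors such as FAS, which activate caspase-8. In the testis apoptosis removes surplus and damaged germ cells.

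Gene expression had been measured by RNA sequencing of testes of outbred ICR mice aged 10 weeks, with 3 libraries in each of 6 groups. The STZ+AOS group received streptozotocin (STZ), an alkylating compound that is toxic to pancreatic beta cells and is used to make mice diabetic, together with alginate oligosaccharide (AOS) at 10 mg/kg. The STZ+AOS-FMT and STZ+control-FMT groups received STZ and a faecal microbiota transplant (FMT), whose names were read here as donor material of AOS-dosed (10 mg/kg) and of control mice. The STZ group received STZ alone, the AOS group received AOS at 10 mg/kg without STZ, and the control group is given by that name only. The labels give neither the dose and timing of STZ nor a measure of diabetes, so effects of the compound and of diabetes cannot be told apart. Nor is it stated that the 3 libraries of each group are separate animals, so p-values cover only the spread between these samples.

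Values are in FPKM, fragments scaled to transcript length and library depth, and they summed to between 561038 and 622169 per library. Read depth is unknown, so no counting error is given. The labelled tissue was checked against its germ cell markers, and the summed level of 8 elongating spermatid genes lay between 25210 and 64150 FPKM in every library. STZ replicate 1 stood apart from the other STZ libraries: its summed Leydig cell markers were 0.473 times the control mean, against 3.16 and 3.37 times in STZ replicates 2 and 3. A summed level of epididymis and fat markers was highest in STZ+control-FMT replicate 2 (315.1 FPKM) and control replicate 3 (193 FPKM), and its part in the results was not tested. Summed blood markers stood at 61.53 to 396.2 FPKM in STZ, 297 to 673.4 FPKM in STZ+control-FMT and 99.79 to 140.6 FPKM in control libraries. In the other groups they lay between 66.44 and 208.8 FPKM, and their part was not tested either. Differences between groups were tested with limma on log2(FPKM + 1), a scale that understates the change of low genes, and a gene was called at an adjusted p under 0.05.

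All 9 genes are protein coding in the GENCODE M21 annotation of GRCm38 (mm10). Trp53 lies at chr11:69580359-69591873 on the plus strand, Mdm2 at chr10:117688875-117710758 on the minus strand and Cdkn1a at chr17:29090976-29100727 on the plus strand. Gadd45a lies at chr6:67035096-67037457 and Bax at chr7:45461697-45466898, both on the minus strand. Bcl2 lies at chr1:106538178-106714274 on the minus strand and Bcl2l11 at chr2:128126038-128162547 on the plus strand. Fas lies at chr19:34290666-34327772 and Casp8 at chr1:58795374-58847503, both on the plus strand. The annotation also holds a pseudogene of Trp53. Genes on the opposite strand overlap Gadd45a (E230016M11Rik), Bcl2 (D630008O14Rik) and Cdkn1a (AC167363.2). Genes on the same strand overlap Bax (Gm45808), Bcl2 (Mir3473f and Gm37053), Fas (Gm27818) and Casp8 (Gm37760). Whether reads were counted by strand is not given in the sources used here, and strand would not separate genes on the same strand. Reads of these overlapping genes may therefore be included.

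The p53 protein binds DNA at decamers of 3 purines, C, 2 bases of A or T, G and 3 pyrimidines, a pattern that reads the same on both strands, usually as a pair of decamers. RefSeq promoter windows of GRCm38.p6, from 250 bases before to 50 bases after each annotated start, were searched for it because these genes are used as readouts of p53. The decamer was found in 5 of 11 windows of the 9 genes, against 2745 of 32851 windows (8.36%) in the whole table of promoters. The 5 stretches are shown 5′ to 3′ on the strand of the gene, with the decamers in capitals. They are Cdkn1a at chr17:29090729-29090978 (plus), Gadd45a at chr6:67037408-67037492 (minus), Bax at chr7:45467045-45467144 (minus), Mdm2 at chr10:117710890-117710989 (minus) and Trp53 at chr11:69580239-69580338 (plus).
Cdkn1a: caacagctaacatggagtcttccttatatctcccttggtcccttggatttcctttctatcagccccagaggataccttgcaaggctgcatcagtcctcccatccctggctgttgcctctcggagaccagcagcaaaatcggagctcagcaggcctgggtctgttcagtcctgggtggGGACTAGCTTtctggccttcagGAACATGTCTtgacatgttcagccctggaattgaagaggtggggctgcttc
Gadd45a: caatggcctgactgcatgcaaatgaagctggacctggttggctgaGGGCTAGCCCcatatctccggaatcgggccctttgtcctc
Bax: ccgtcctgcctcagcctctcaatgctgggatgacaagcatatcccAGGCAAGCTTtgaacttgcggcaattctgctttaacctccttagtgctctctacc
Mdm2: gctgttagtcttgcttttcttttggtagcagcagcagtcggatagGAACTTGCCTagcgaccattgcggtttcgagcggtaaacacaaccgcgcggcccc
Trp53: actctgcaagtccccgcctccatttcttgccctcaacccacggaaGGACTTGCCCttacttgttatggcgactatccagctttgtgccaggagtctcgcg

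Cdkn1a was the only gene of the 9 with 2 decamers in a window. They begin 73 and 51 bases before the upstream of its 2 annotated starts, with 12 bases between them, and the 10 bases directly after the last decamer differ from the pattern at 1 position. Its other annotated start, 2790 bases downstream, had none in its window. The decamer began 40 bases before the start in Gadd45a, 75 in Trp53, 186 in Mdm2 and 201 in Bax. The windows of Casp8, Bcl2, Bcl2l11 and Fas held none, which says only that the pattern is not in these letters. The only Casp8 window, chr1:58802252-58802551, lies inside the gene as placed by GENCODE, so the upstream end of that gene was not searched. GGGCGG, searched on both strands, was in 8 of the 11 windows, against 35.7% of all windows, and CCAAT in 6 of 11, against 37.4%. A match describes a sequence and not a bound site.

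The first comparison asked how the genes stood in the testis after STZ. In STZ testes, 6 of the 7 tested genes were higher than in control testes: Trp53, the damage-inducible growth arrest genes Cdkn1a and Gadd45a, the mitochondrial death genes Bax and Bcl2l11, and Casp8. Gadd45a and Casp8 were each more than 3 times the control level, at 3.68 and 3.61 times the control mean. Mdm2, the highest of the 9 in FPKM, was level between the groups at 1.03 times. None of the 7 was lower. Against this count stands the whole table, in which 43.2% of the tested genes were called higher in STZ testes and 12% lower.

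**Figure D1:**
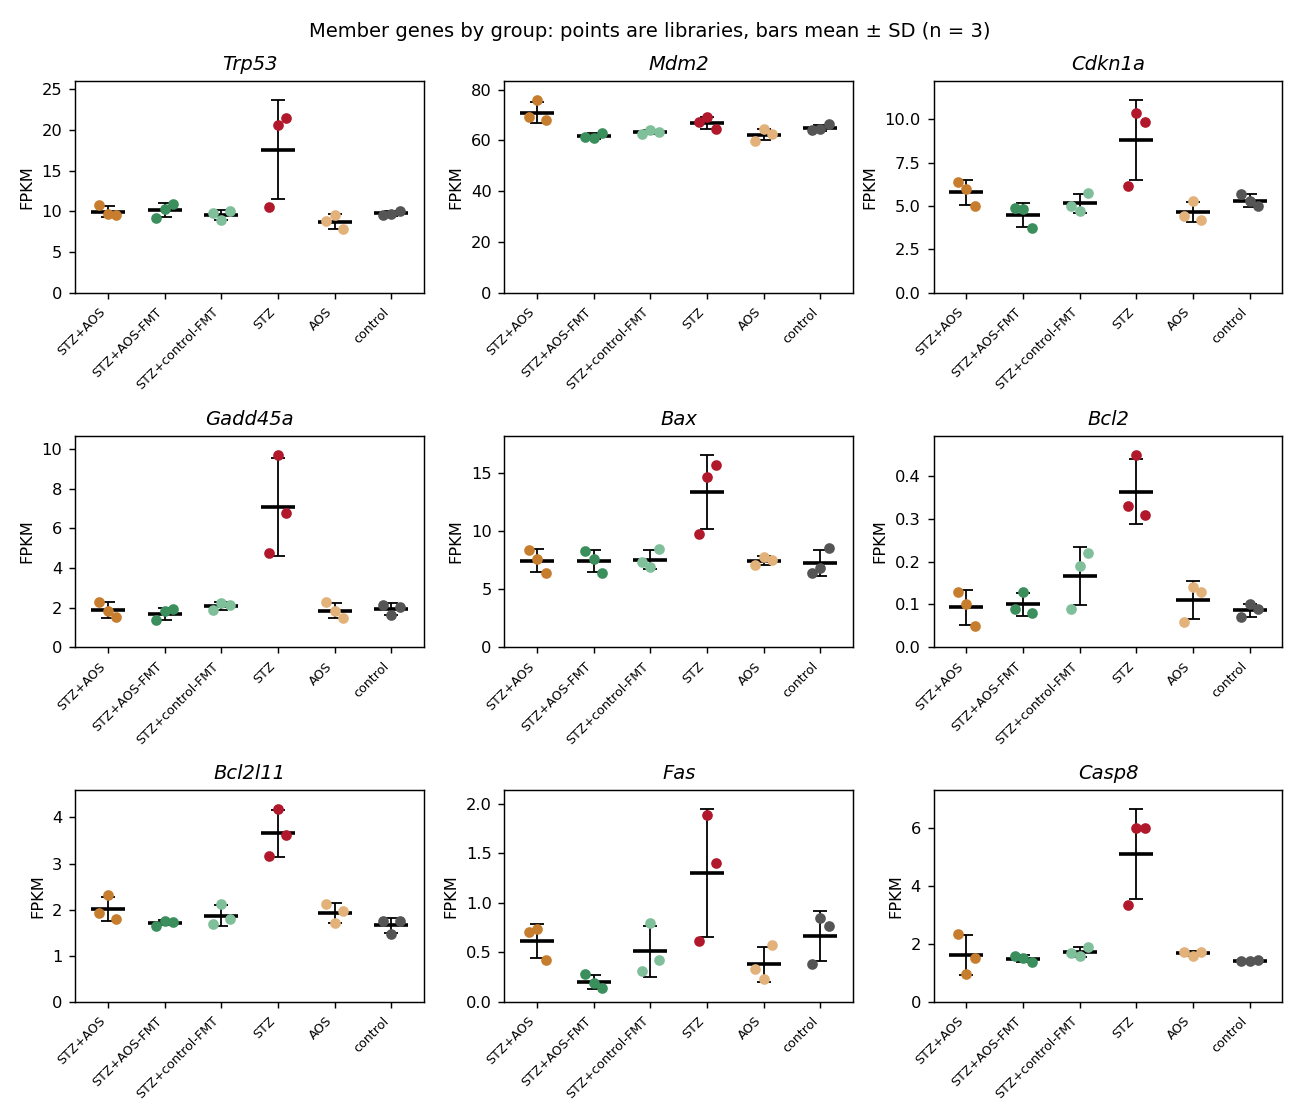
Level of each of the 9 genes in FPKM (vertical axes, linear from 0) in the 6 groups (horizontal axes). Points are libraries and bars are the mean ± SD of 3 libraries. The STZ group is the highest group for 8 genes, with 1 STZ library near the other groups for Trp53, Cdkn1a and Fas, and Mdm2 shows no such peak.

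Trp53 stood at 10.52, 20.59 and 21.50 FPKM in STZ libraries, against 9.56, 9.62 and 10.09 FPKM in control libraries. The groups did not overlap, but STZ replicate 1 lay within the range of the 15 libraries outside the STZ group, 7.78 to 10.85 FPKM, while the other STZ libraries were nearly level with each other above it. The means were 17.54 ± 6.09 FPKM in STZ libraries and 9.757 ± 0.29 FPKM in control libraries (SD, n = 3 each), a log2 fold change of 0.72 (SE 0.18, adjusted p = 0.0027). Without STZ replicate 1 the log2 fold change was 1.04 (adjusted p = 9e-08), and with median centring of each library it was 0.38 (adjusted p = 0.031). With only the STZ and control libraries in the fit the call was lost (adjusted p = 0.054).

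Mdm2 encodes the ubiquitin ligase that keeps p53 low and is itself a p53 target. It stood at 67.26, 69.22 and 64.31 FPKM in STZ libraries, against 64.22, 64.51 and 66.33 FPKM in control libraries. The groups overlapped, and the means of 66.93 ± 2.47 FPKM in STZ libraries and 65.02 ± 1.14 FPKM in control libraries (SD, n = 3 each) gave a log2 fold change of 0.04 (SE 0.05, adjusted p = 0.48). The direction turned when each library was centred on its median, to −0.3 (adjusted p = 0.00063), a scaling under which the median log2 fold change of all genes was −0.17, against 0.17 in the values as deposited.

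Cdkn1a encodes p21, the inhibitor of cyclin-dependent kinases through which p53 stops the cell cycle. It stood at 6.13, 10.35 and 9.86 FPKM in STZ libraries, against 5.67, 5.29 and 4.97 FPKM in control libraries. As for Trp53, the groups did not overlap, STZ replicate 1 lay close to control and the other STZ libraries lay well above. The log2 fold change was 0.6 (SE 0.15, adjusted p = 0.0033). The call was lost with median centring (0.26, adjusted p = 0.085) and with quantile normalization (0.24, adjusted p = 0.13).

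Gadd45a encodes a small nuclear stress sensor linked to growth arrest, repair and stress kinase signalling. It stood at 4.77, 9.71 and 6.78 FPKM in STZ libraries, against 2.14, 1.60 and 2.03 FPKM in control libraries. Every STZ library was above each of the other 15 libraries, which ended at 2.29 FPKM, and even STZ replicate 1 was 2.48 times the control mean. The log2 fold change of 1.43 (SE 0.18, adjusted p = 1e-05) was the largest among the 7 tested genes.

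Of the genes of the mitochondrial route, Bax, whose product forms pores in the outer membrane, stood at 9.68, 14.64 and 15.66 FPKM in STZ libraries, against 6.39, 6.83 and 8.51 FPKM in control libraries. All STZ libraries were above the 15 others, though STZ replicate 1 exceeded the highest of them by little. The means were 13.33 ± 3.2 FPKM in STZ libraries and 7.243 ± 1.12 FPKM in control libraries (SD, n = 3 each), a log2 fold change of 0.78 (SE 0.15, adjusted p = 0.00043). It was 0.44 with median centring (adjusted p = 0.0063) and 0.48 with quantile normalization (adjusted p = 0.0066). Bcl2l11 encodes BIM, a BH3-only protein that binds the prosurvival members and frees BAX. It stood at 3.16, 4.18 and 3.62 FPKM in STZ libraries, against 1.76, 1.46 and 1.75 FPKM in control libraries. The groups were far apart for their spread, all 3 STZ libraries lay close together, and the log2 fold change was 0.8 (SE 0.1, adjusted p = 8.7e-06). That of Bcl2l11 was 0.46 with median centring (adjusted p = 0.00034) and 0.4 with quantile normalization (adjusted p = 0.0016).

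Bcl2, the prosurvival gene that restrains BAX, was the lowest of the 9 genes. It stood at 0.33, 0.45 and 0.31 FPKM in STZ libraries, against 0.07, 0.10 and 0.09 FPKM in control libraries. The STZ libraries were above all 15 others, which reached 0.22 FPKM, so the prosurvival gene moved the same way as the death genes. The ratio of the means was 4.19. The fit without a filter, in which such a low gene changes little on the log2(FPKM + 1) scale, gave 0.33 (SE 0.05, adjusted p = 9.3e-05).

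Fas encodes the receptor that, when bound by its ligand, starts the extrinsic route. It stood at 0.61, 1.89 and 1.40 FPKM in STZ libraries, against 0.38, 0.85 and 0.76 FPKM in control libraries. The groups overlapped, since STZ replicate 1 lay inside the control range, and the fit without a filter did not call it (0.44, SE 0.18, adjusted p = 0.069). Casp8, which encodes the initiator caspase recruited by FAS, stood at 3.32, 5.98 and 5.99 FPKM in STZ libraries, against 1.41, 1.40 and 1.42 FPKM in control libraries. The control libraries were almost identical and every STZ library was above all 15 others, the highest of which was 2.34 FPKM in STZ+AOS replicate 1. The log2 fold change was 1.3 (SE 0.18, adjusted p = 2e-05).

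The 3 STZ libraries differed among themselves across the 9 genes. Relative to the control mean, STZ replicate 1 ranged from 0.9196 (Fas) to 3.808 times (Bcl2), and it was the lowest of the 3 STZ libraries for Trp53, Cdkn1a, Gadd45a, Bax, Bcl2l11, Fas and Casp8. It was not the lowest for Mdm2 and Bcl2, where STZ replicate 3 was. All 3 STZ libraries exceeded all 15 others for 5 genes (Gadd45a, Bax, Bcl2, Bcl2l11 and Casp8), and 2 of the 3 did for Trp53, Cdkn1a and Fas. Against the control libraries alone, the STZ libraries lay wholly above for Trp53, Cdkn1a, Gadd45a, Bax, Bcl2, Bcl2l11 and Casp8. That arrangement held for 42.1% of all tested genes, of which Bcl2 is not 1. The share of all genes with STZ libraries above all 15 others was not computed.

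Marker genes of several cell types also differed between STZ and control testes, some lists higher and some lower. Their counts stand beside 43.2% of all tested genes called higher and 12% called lower. They were not taken again with median centring or quantile normalization. Of 12 Sertoli cell markers 12 were called higher in STZ testes, with a summed level of 1814 to 2362 FPKM in STZ libraries and 741.8 to 811.7 FPKM in control libraries. Of 12 macrophage markers 11 were called higher, with sums of 191.4 to 391.7 FPKM in STZ libraries and 79.88 to 83.97 FPKM in control libraries, and of 8 spermatogonial markers tested 6 were higher, with sums of 121.7 to 133 FPKM in STZ libraries and 69.08 to 74.87 FPKM in control libraries. Of 8 elongating spermatid markers 8 were called lower, with sums of 25210 to 46550 FPKM in STZ libraries and 51130 to 57430 FPKM in control libraries, and 7 of 8 round spermatid markers were lower, with sums of 967.8 to 1132 FPKM in STZ libraries and 1271 to 1317 FPKM in control libraries. Of 10 peritubular myoid and endothelial markers 8 were called higher, with sums of 70.98 to 120.5 FPKM in STZ libraries and 45.57 to 49.99 FPKM in control libraries, and of 9 spermatocyte markers 1 was higher and 1 lower, with sums of 685.8 to 837.8 FPKM in STZ libraries and 760.8 to 798.4 FPKM in control libraries. Leydig cell markers were called in 1 of 8 and split the STZ libraries, with sums from 1799 to 12810 FPKM in STZ libraries and from 3523 to 4045 FPKM in control libraries. No marker of these lists was at 0 in any library. In RNA of a whole organ, more or fewer cells of a type and more or less RNA per cell cannot be told apart, and the part of these cell types in the levels of the 9 genes was not tested.

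**Figure D2:**
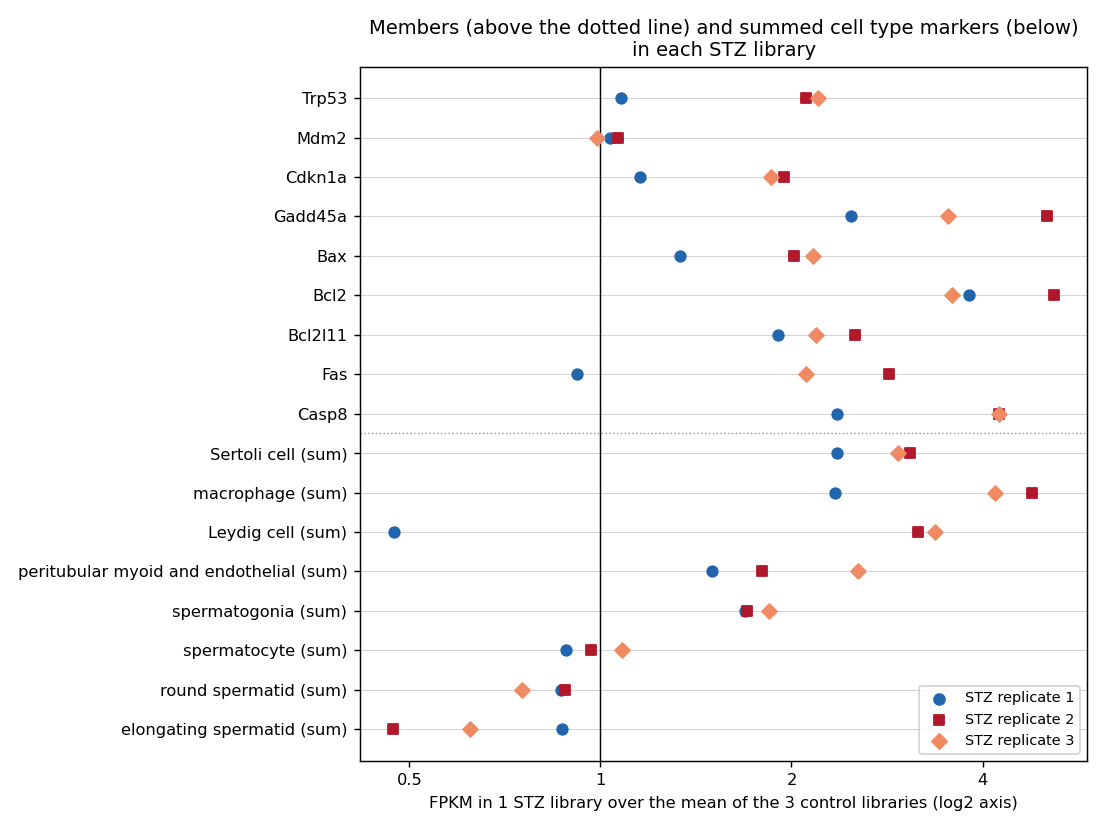
Level in each STZ library over the mean of the 3 control libraries (horizontal log2 axis, 1 means equal) for the 9 genes, above the dotted line, and for summed cell type markers, below it. STZ replicate 1 (circles) sits to the left of replicates 2 and 3 for Trp53, Cdkn1a, Gadd45a, Bax, Bcl2l11, Fas and Casp8. It does so for every cell type sum drawn except those of round and elongating spermatids. Gadd45a, Bcl2, Bcl2l11 and Casp8 are at least 1.907 times control in every STZ library.

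Genes of the wider pathway were read from lists around the 9 genes, and each count of calls stands beside the 43.2% of all tested genes that were called higher in STZ testes and the 12% called lower. Of 24 direct p53 target genes listed, 20 were tested, 17 were called higher and 0 lower, with a median log2 fold change of 0.5, against 0.17 over all genes tested. They included Sesn1 and Sesn2, which encode stress-induced sestrins (0.72, adjusted p = 3e-06, and 0.81, adjusted p = 9.7e-06). Ei24, a gene of the endoplasmic reticulum first found as etoposide-induced, was at 20.99 ± 5.04 FPKM in STZ libraries and 10.67 ± 0.715 FPKM in control libraries (SD, n = 3 each; 0.89, adjusted p = 4.3e-05). Of the 20, 1 (Phlda3) passed the filter through the STZ libraries alone. With median centring or with quantile normalization, 6 were called higher and 2 lower.

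Few of the genes that control p53 itself were called. Of 11 listed, 9 were tested, 2 were called higher and 0 lower, with a median of 0.01. Those called were Atm, the kinase that answers DNA double-strand breaks (0.36, adjusted p = 0.0096), and Cdkn2a, the locus of p16 and p19Arf (0.74, adjusted p = 0.02), whose libraries overlapped between the groups. Ppm1d, which encodes the phosphatase WIP1, was high at 147.8 ± 11.5 FPKM in STZ libraries and 163.5 ± 8.63 FPKM in control libraries (SD, n = 3 each; −0.15, adjusted p = 0.052). With median centring 0 were called higher and 6 lower. The count was 0 when STZ replicate 2 was left out, and 1 when STZ replicate 3, control replicate 2 or control replicate 3 was.

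Growth arrest genes related to Cdkn1a and Gadd45a were called higher in 4 of 7 and lower in 0, beside 43.2% of all tested genes called higher, with a median of 0.35. Gadd45b, a paralogue of Gadd45a, was higher by 1.32 (adjusted p = 3.5e-06), Cdkn1b, which encodes the cell-cycle inhibitor p27, by 0.96 (adjusted p = 7.5e-06), and Gadd45g, the other paralogue, by 0.52 (adjusted p = 0.0092). With median centring 2 were called higher and 3 lower, and the median was 0.

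In the BCL-2 family genes of both sides were among those called, beside 43.2% of all tested genes called higher, and others were not. Of the prosurvival genes other than Bcl2, 4 were listed, 3 tested, 2 called higher and 0 lower: Mcl1, at 32.42 ± 2.21 FPKM in STZ libraries and 21.99 ± 0.466 FPKM in control libraries (SD, n = 3 each; 0.54, adjusted p = 1.4e-06), and Bcl2l2, which encodes BCL-W, a protein needed for spermatogenesis in mice (0.87, adjusted p = 6.5e-05). Bcl2l1, the gene of BCL-XL, was not called (0.11, adjusted p = 0.16). Of the BAX-like and BH3-only genes, 9 were listed, 7 tested, 5 called higher and 0 lower, with a median of 0.48. Bok, a relative of Bax, had the largest change of any gene on these lists, at 9.177 ± 1.82 FPKM in STZ libraries and 2.093 ± 0.266 FPKM in control libraries (SD, n = 3 each; 1.71, adjusted p = 4.1e-08), followed by the BH3-only genes Bik (0.97, adjusted p = 0.00025) and Bid (0.55, adjusted p = 0.002). With median centring 2 genes were called higher and 1 lower on each of these lists.

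Downstream of Fas and beside Casp8, the death receptor genes were called higher in 8 of 8 tested (10 listed), with a median of 0.55. Tnfrsf1a, which encodes a receptor of tumour necrosis factor, stood at 18.49 ± 6.64 FPKM in STZ libraries and 5.827 ± 0.315 FPKM in control libraries (SD, n = 3 each; 1.45, adjusted p = 1e-05). Cflar encodes c-FLIP, which blocks caspase-8 at the receptor, and it too was higher (0.8, adjusted p = 7.6e-06), as was the death receptor gene Tnfrsf21 (0.89, adjusted p = 2.6e-05). The count was 5 without STZ replicate 2, without STZ replicate 3 or without control replicate 1, and 4 higher and 0 lower with median centring.

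Among caspase and execution genes, 14 were listed, 13 tested, 10 called higher and 1 lower, with a median of 0.45. Cycs, which encodes the cytochrome c of somatic cells, was higher (0.85, adjusted p = 4.5e-05), as were the executioner caspase gene Casp6 (0.96, adjusted p = 7.4e-05) and Aifm1, the gene of apoptosis-inducing factor (0.93, adjusted p = 3e-04). The gene called lower, named after its value was seen, was Cyct, which encodes the cytochrome c of male germ cells, at 126 ± 3.52 FPKM in STZ libraries and 140.3 ± 6.2 FPKM in control libraries (SD, n = 3 each; −0.15, adjusted p = 0.049). The 11 calls became 6 when STZ replicate 2 was left out and 7 when STZ replicate 3 was, and 4 higher and 2 lower with median centring. Of the 5 inhibitor of apoptosis genes, which encode caspase inhibitors and their relatives, 4 were called higher and 0 lower, with a median of 0.35, led by Birc3 (1.33, adjusted p = 3.5e-05), Xiap (0.83, adjusted p = 0.00019) and Birc6 (0.35, adjusted p = 0.00065). With median centring 2 were called higher and 1 lower.

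**Figure D3:**
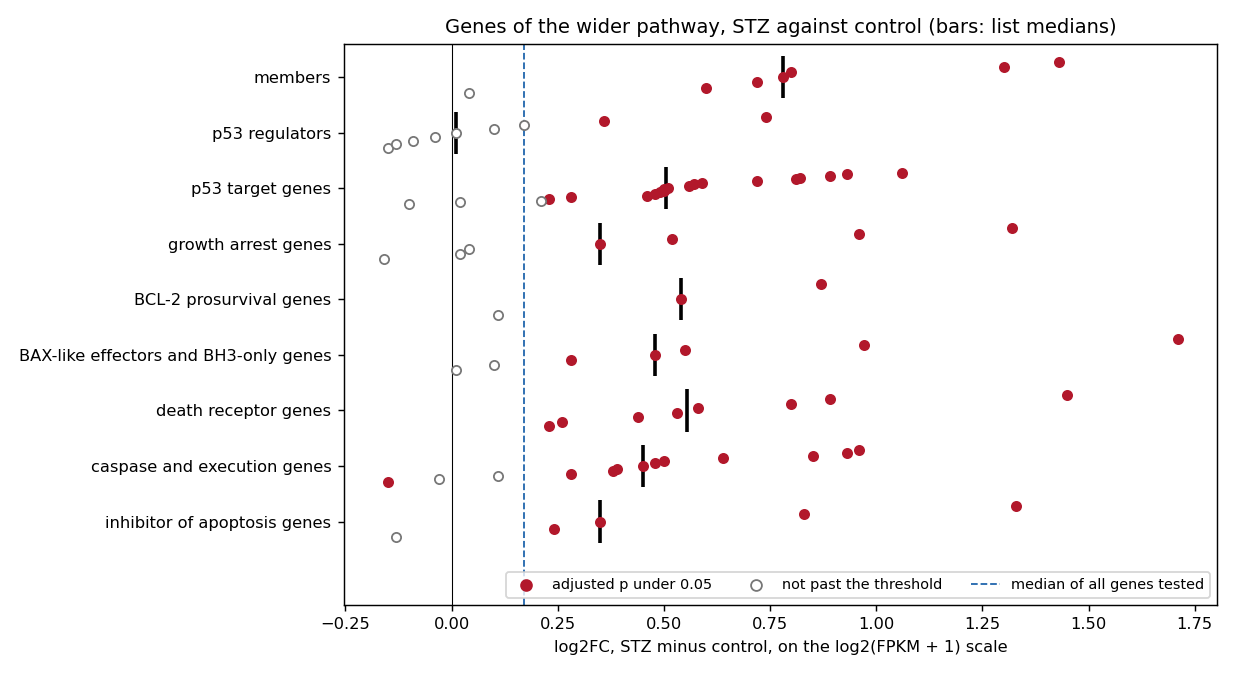
Log2 fold change of STZ minus control on the log2(FPKM + 1) scale (horizontal axis) for every tested gene of the 9 and of 8 lists of the wider pathway, 1 row per list. Filled points passed an adjusted p of 0.05, short black bars are list medians, and the dashed line is the median of all tested genes, 0.17. The list medians lie at 0.35 or higher except for the p53 regulators, at 0.01. Median centring lowers each list and turns the median of the regulators to −0.34.

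The next comparisons asked how the genes stood when STZ was combined with AOS or with a transplant. In each of the 3 treated STZ groups, Trp53, Cdkn1a, Gadd45a, Bax, Bcl2l11 and Casp8 were lower than in the STZ group. In STZ+AOS testes 6 of the 7 tested genes were called lower and 0 higher, against 43.1% of all genes called lower. In STZ+AOS-FMT testes all 7 were called lower, against 44.5%, and in STZ+control-FMT testes 6 were, against 39.9%. Libraries lay wholly below STZ in 41.1%, 42.7% and 38.2% of all tested genes in these comparisons. These comparisons share the 3 STZ libraries, so they are not independent of each other or of the comparison of STZ with control.

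Trp53 stood at 10.71, 9.61 and 9.53 FPKM in STZ+AOS, 9.17, 10.30 and 10.85 FPKM in STZ+AOS-FMT, and 9.77, 8.89 and 10.02 FPKM in STZ+control-FMT libraries, against 10.52 to 21.50 FPKM in STZ libraries. STZ replicate 1 lay among the STZ+AOS and STZ+AOS-FMT libraries, and STZ+control-FMT libraries alone were wholly below the STZ group. The log2 fold changes were −0.7 (SE 0.18, adjusted p = 0.0034), −0.68 (adjusted p = 0.004) and −0.75 (adjusted p = 0.0024) for the 3 treated groups in that order. With only the groups compared in each fit, all 3 calls were lost (adjusted p of 0.059, 0.063 and 0.056), and that of STZ+AOS-FMT also with median centring (−0.32, adjusted p = 0.066), under which STZ+AOS gave −0.35 (adjusted p = 0.043) and STZ+control-FMT −0.44 (adjusted p = 0.016).

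Mdm2 stood at 69.04, 75.80 and 68.10 FPKM in STZ+AOS, 61.18, 61.00 and 63.10 FPKM in STZ+AOS-FMT, and 62.62, 63.95 and 63.46 FPKM in STZ+control-FMT libraries, against 64.31 to 69.22 FPKM in STZ libraries. Both transplant groups lay wholly below STZ, by little, and STZ+AOS held the highest library of all 18. The log2 fold change was 0.08 in STZ+AOS (SE 0.05, adjusted p = 0.14), −0.11 in STZ+AOS-FMT (adjusted p = 0.047) and −0.08 in STZ+control-FMT (adjusted p = 0.17). The call in STZ+AOS-FMT was lost in 17 of 25 other settings. With median centring it turned to 0.25 (adjusted p = 0.0024), and the other comparisons gave 0.43 (adjusted p = 4.6e-05) in STZ+AOS and 0.23 (adjusted p = 0.0043) in STZ+control-FMT.

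Cdkn1a stood at 6.39, 5.97 and 4.97 FPKM in STZ+AOS, 4.87, 4.85 and 3.71 FPKM in STZ+AOS-FMT, and 4.99, 4.70 and 5.77 FPKM in STZ+control-FMT libraries, against 6.13 to 10.35 FPKM in STZ libraries. The transplant groups were wholly below STZ, whereas STZ+AOS replicate 1 exceeded STZ replicate 1. The log2 fold change was −0.51 in STZ+AOS (SE 0.15, adjusted p = 0.01), −0.81 in STZ+AOS-FMT (adjusted p = 0.00032) and −0.64 in STZ+control-FMT (adjusted p = 0.0025). The call in STZ+AOS was lost in 6 of 25 other settings. The change was smallest with median centring (−0.16, adjusted p = 0.29) and quantile normalization (−0.14, adjusted p = 0.38). It was also lost with only the groups compared (−0.51, adjusted p = 0.073) and without STZ replicate 2 (−0.38, adjusted p = 0.059), STZ replicate 3 (−0.41, adjusted p = 0.055) or STZ+AOS replicate 3 (−0.42, adjusted p = 0.051). With quantile normalization the change was −0.42 in STZ+AOS-FMT (adjusted p = 0.013) and −0.32 in STZ+control-FMT (adjusted p = 0.049).

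Gadd45a stood at 2.29, 1.82 and 1.52 FPKM in STZ+AOS, 1.35, 1.80 and 1.93 FPKM in STZ+AOS-FMT, and 1.88, 2.24 and 2.13 FPKM in STZ+control-FMT libraries, against 4.77 to 9.71 FPKM in STZ libraries. The highest treated library, at 2.29 FPKM, lay far below the lowest STZ library, at 4.77 FPKM. The log2 fold changes of −1.45 (SE 0.18, adjusted p = 1e-05), −1.55 (adjusted p = 4.5e-06) and −1.35 (adjusted p = 2.4e-05), in the same order, were the largest among the tested genes of the 9 in each comparison.

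Bax stood at 8.34, 7.56 and 6.39 FPKM in STZ+AOS, 8.27, 7.54 and 6.41 FPKM in STZ+AOS-FMT, and 7.28, 6.89 and 8.42 FPKM in STZ+control-FMT libraries, against 9.68 to 15.66 FPKM in STZ libraries. No treated group overlapped STZ, and the log2 fold changes were −0.75 (SE 0.15, adjusted p = 0.00063), −0.75 (adjusted p = 0.00056) and −0.73 (adjusted p = 9e-04). With median centring they were −0.4 (adjusted p = 0.011), −0.38 (adjusted p = 0.013) and −0.41 (adjusted p = 0.0094). Bcl2l11 stood at 1.92, 2.31 and 1.80 FPKM in STZ+AOS, 1.65, 1.76 and 1.74 FPKM in STZ+AOS-FMT, and 1.69, 2.12 and 1.79 FPKM in STZ+control-FMT libraries, against 3.16 to 4.18 FPKM in STZ libraries. All treated libraries lay well below STZ, with log2 fold changes of −0.63 (SE 0.1, adjusted p = 8.7e-05), −0.77 (adjusted p = 1.2e-05) and −0.7 (adjusted p = 4.2e-05). With quantile normalization the call of Bcl2l11 was lost in STZ+AOS (−0.2, adjusted p = 0.071), and the change was −0.34 in STZ+AOS-FMT (adjusted p = 0.0044) and −0.34 in STZ+control-FMT (adjusted p = 0.0052).

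Bcl2 stood at 0.13, 0.10 and 0.05 FPKM in STZ+AOS, 0.09, 0.13 and 0.08 FPKM in STZ+AOS-FMT, and 0.09, 0.19 and 0.22 FPKM in STZ+control-FMT libraries, against 0.31 to 0.45 FPKM in STZ libraries. All 3 groups were wholly below STZ, at 0.257, 0.275 and 0.459 times its mean, and the fit without a filter gave −0.32 (adjusted p = 0.00012), −0.31 (adjusted p = 0.00014) and −0.22 (adjusted p = 0.0021). The prosurvival gene and the death genes Bax and Bcl2l11 were therefore lower together.

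Fas stood at 0.70, 0.73 and 0.42 FPKM in STZ+AOS, 0.28, 0.19 and 0.14 FPKM in STZ+AOS-FMT, and 0.31, 0.80 and 0.42 FPKM in STZ+control-FMT libraries, against 0.61 to 1.89 FPKM in STZ libraries. STZ+AOS-FMT alone did not overlap STZ, at 0.156 times its mean, and it was also wholly below control and below STZ+control-FMT. The fit without a filter gave −0.9 in STZ+AOS-FMT (adjusted p = 0.0012), −0.58 in STZ+control-FMT (adjusted p = 0.021) and −0.47 in STZ+AOS (adjusted p = 0.05).

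Casp8 stood at 2.34, 0.97 and 1.51 FPKM in STZ+AOS, 1.59, 1.51 and 1.36 FPKM in STZ+AOS-FMT, and 1.68, 1.57 and 1.89 FPKM in STZ+control-FMT libraries, against 3.32 to 5.99 FPKM in STZ libraries. No treated group overlapped STZ, and STZ+AOS was the most scattered of the 3. The log2 fold changes were −1.22 (SE 0.18, adjusted p = 3.9e-05), −1.26 (adjusted p = 2.5e-05) and −1.13 (adjusted p = 9.1e-05). With quantile normalization they were −0.8 (adjusted p = 0.00056), −0.84 (adjusted p = 0.00033) and −0.79 (adjusted p = 0.00068).

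Cell type markers differed between the treated groups and STZ as well. Of all tested genes, 43.1% were called lower in STZ+AOS, 44.5% in STZ+AOS-FMT and 39.9% in STZ+control-FMT testes. In either direction, 7786, 8011 and 7257 of the 14164 tested genes were called in these comparisons. Summed Sertoli cell markers stood at 849.7 to 897.2 FPKM in STZ+AOS, 783.6 to 811.7 FPKM in STZ+AOS-FMT and 778.8 to 868.5 FPKM in STZ+control-FMT libraries, against 1814 to 2362 FPKM in STZ libraries. Summed macrophage markers stood at 65.51 to 87.5, 83.45 to 95.57 and 80.62 to 100.5 FPKM in the same treated groups, against 191.4 to 391.7 FPKM in STZ libraries. All 12 Sertoli cell markers were called lower in each treated group, and of 12 macrophage markers 12 were in STZ+AOS and 11 in each transplant group. The 8 elongating spermatid markers were all called higher in each treated group, with sums of 50660 to 56290 FPKM in STZ+AOS, 54080 to 59930 FPKM in STZ+AOS-FMT and 49980 to 59400 FPKM in STZ+control-FMT libraries, against 25210 to 46550 FPKM in STZ libraries. Of 8 Leydig cell markers 6 were called lower in STZ+AOS, where they summed to 1990 to 2537 FPKM, and 1 in each transplant group, with sums of 3155 to 3585 FPKM in STZ+AOS-FMT and 2909 to 3973 FPKM in STZ+control-FMT libraries, against sums of 1799 to 12810 FPKM in STZ libraries. Of 10 peritubular myoid and endothelial markers 8 were called lower in STZ+AOS, 9 in STZ+AOS-FMT and 7 in STZ+control-FMT. Their sums were 44.68 to 52.34 FPKM in STZ+AOS, 40.9 to 49.31 FPKM in STZ+AOS-FMT and 44.07 to 70.52 FPKM in STZ+control-FMT libraries, against 70.98 to 120.5 FPKM in STZ libraries. Of 8 spermatogonial markers tested 6 were called lower in each treated group. Of 8 round spermatid markers 7 were called higher in STZ+AOS, 4 in STZ+AOS-FMT and 6 in STZ+control-FMT, and 0 lower. Of 9 spermatocyte markers 1 was called higher in each treated group, with 1 lower in STZ+AOS and 2 in each transplant group. The part of these cell types in the differences was not tested.

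**Figure D4:**
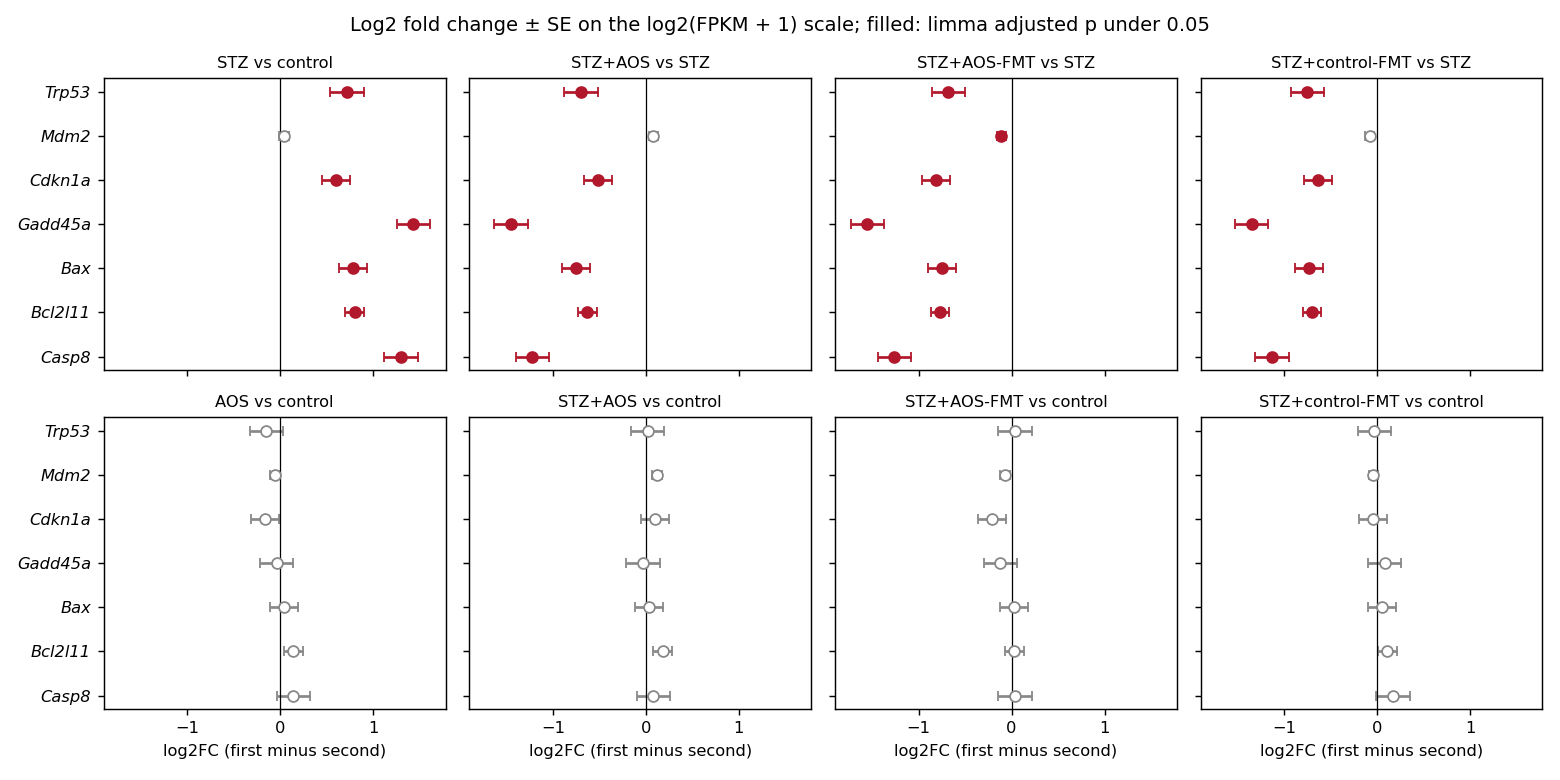
Log2 fold change ± SE (horizontal axes, first-named minus second-named group, log2(FPKM + 1) scale) of the 7 tested genes in 8 comparisons. Filled points passed a limma adjusted p of 0.05. In the upper row the genes other than Mdm2 are higher in STZ than in control and lower in the treated STZ groups than in STZ. Mdm2 lies near 0, its direction turns with median centring in 3 of the 4 upper panels, and every point in the lower row, against control, is open.

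Set against control instead, the treated STZ groups were close to it. No gene of the 9 was called in STZ+AOS, STZ+AOS-FMT or STZ+control-FMT testes against control by limma, where 0.0424%, 0% and 0% of all tested genes were called. At an unadjusted p under 0.05 the count was 1 of the 7 in STZ+AOS, which was Mdm2 (0.12, SE 0.05, adjusted p = 0.51), and 0 in both transplant groups, against 7.98%, 6.54% and 6.23% of all genes. A few libraries were nonetheless arranged without overlap: Mdm2 and Bcl2l11 were wholly above control in STZ+AOS, and Casp8 was in STZ+control-FMT. Mdm2 was wholly below control in both transplant groups, as were Cdkn1a (−0.21, SE 0.15, adjusted p = 0.84) and Fas in STZ+AOS-FMT. Such an arrangement was found in 17.8%, 16.7% and 16.3% of all tested genes in the 3 comparisons. An adjusted p above the threshold does not show that the levels were the same.

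The transplants were also set against each other, which compares material of AOS-dosed donors with that of control donors. No gene of the 9 was called between STZ+AOS-FMT and STZ+control-FMT by limma, as for 0% of all genes, and 0 of the 7 reached an unadjusted p under 0.05, against 6.11% of all genes. The log2 fold changes ran from −0.2 (Gadd45a, SE 0.18, adjusted p = 0.93) to 0.07 (Trp53, SE 0.18, adjusted p = 0.98). Fas alone had libraries that did not overlap, lower in STZ+AOS-FMT, as 14.9% of all tested genes did in either direction.

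AOS without STZ left the genes near control. Trp53 stood at 8.84, 9.56 and 7.78 FPKM in AOS libraries, against 9.56, 9.62 and 10.09 FPKM in control libraries, with a log2 fold change of −0.15 (SE 0.18, adjusted p = 0.83). The AOS libraries reached no higher than the lowest control library, and the SE was larger than the change. Gadd45a stood at 2.26, 1.82 and 1.47 FPKM in AOS libraries, against 2.14, 1.60 and 2.03 FPKM in control libraries (−0.04, SE 0.18, adjusted p = 0.96), and Casp8 at 1.70, 1.57 and 1.72 FPKM in AOS libraries, against 1.41, 1.40 and 1.42 FPKM in control libraries (0.14, SE 0.18, adjusted p = 0.84). Casp8 was the only gene of the 9 whose AOS libraries lay wholly apart from control, an arrangement shared by 22.3% of all genes. No gene of the 9 was called by limma, as for 0% of all genes, and 0 of the 7 passed an unadjusted p of 0.05, against 8.99% of all genes.

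The remaining AOS values lay in or near the control range. Mdm2 ranged from 59.93 to 64.29 FPKM in AOS and from 64.22 to 66.33 FPKM in control libraries, Cdkn1a from 4.21 to 5.28 FPKM in AOS and from 4.97 to 5.67 FPKM in control libraries, and Bax from 7.02 to 7.76 FPKM in AOS and from 6.39 to 8.51 FPKM in control libraries. Bcl2l11 ranged from 1.70 to 2.12 FPKM in AOS and from 1.46 to 1.76 FPKM in control libraries, Fas from 0.23 to 0.57 FPKM in AOS and from 0.38 to 0.85 FPKM in control libraries, and Bcl2 from 0.06 to 0.14 FPKM in AOS and from 0.07 to 0.10 FPKM in control libraries. None of these genes was called, also with Bcl2 and Fas in the fit without a filter.

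The effect of AOS with STZ (STZ+AOS minus STZ) was then compared with its effect without STZ (AOS minus control) by an interaction term. This term uses the same STZ and control libraries as the comparison of STZ with control, so it is not independent of it. Of the 7 tested genes 4 were called, all lower, against 29.1% of all genes called lower and 35.2% called in either direction. They were Gadd45a (−1.41, SE 0.25, adjusted p = 0.00085), Casp8 (−1.37, SE 0.25, adjusted p = 0.00095), Bax (−0.79, SE 0.21, adjusted p = 0.0099) and Bcl2l11 (−0.77, SE 0.14, adjusted p = 0.00098). Trp53 (−0.55, adjusted p = 0.096), Cdkn1a (−0.34, adjusted p = 0.23) and Mdm2 (0.14, adjusted p = 0.099) were not called, so their AOS effect was not shown to differ with STZ. In the fit without a filter Bcl2 was called lower (−0.35, SE 0.07, adjusted p = 0.0027) and Fas was not called (−0.2, SE 0.26, adjusted p = 0.62).

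Over all 6 groups, limma's F test called all 7 tested genes, Mdm2 among them (adjusted p = 0.015), against 52.3% of all genes. The order of levels in control testes ran from Mdm2 (65.02 ± 1.14 FPKM) through Trp53, Bax (7.243 ± 1.12 FPKM), Cdkn1a (5.31 ± 0.35 FPKM), Gadd45a (1.923 ± 0.285 FPKM), Bcl2l11 (1.657 ± 0.17 FPKM), Casp8 (1.41 ± 0.01 FPKM) and Fas (0.6633 ± 0.249 FPKM) to Bcl2 (0.08667 ± 0.0153 FPKM; SD, n = 3 each). Neighbours in this order did not overlap, except Gadd45a and Bcl2l11.

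Across the 18 libraries, 8 of the genes varied together and Mdm2 did not. Pearson's r of log2(FPKM + 1) over the 28 pairs without Mdm2 ran from 0.71 to 0.94, with a median of 0.86, and over the 8 pairs with Mdm2 from 0.11 to 0.49, with a median of 0.25. All pairs share the same 18 libraries and the 3 STZ libraries at their high end, so these values are a description. The genes of the table most like Trp53 were L3mbtl4 (r = 0.976), Nars (0.966) and Cdc40 (0.965), and those most like Gadd45a were Arpc1b (0.98), Cd14 (0.977) and Lfng (0.977). Casp8 was most like Rcan3 and Hs1bp3 (0.979 each), Bax like Gbp2 (0.964), Bcl2l11 like Dtx1 (0.967) and Cdkn1a like the cyclin gene Ccna2 (0.956). The gene most like Mdm2 was Lin54 (0.829).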

How the data were processed

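RNA was measured in 18 testis libraries, 3 in each of 6 groups taken from the treatment labels. The authors deposited 1 table of a value per gene and library; its header names no unit, and the values were read as FPKM, although RPKM or TPM with genes left out cannot be told apart. The submitters' processing notes name Bowtie 0.12.2 and the build mm10; how reads were counted, on which annotation, and how they were scaled was not given in the sources used here. Only 58.1% of 1469 low values in 265 genes were whole multiples of their gene's lowest value within 0.15, so read counts and depth were not recovered and no count test was run.

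The deposited FPKM values were tested as log2(FPKM + 1) with limma 3.58.1 in R 4.3.3 (trended variance, two-sided), after a filter on low values (at least 1 in at least 3 libraries, 14164 of 20985 genes). A single model of group means held all 18 libraries without a replicate block, and p-values were adjusted by Benjamini-Hochberg over all genes within each of 10 comparisons. The model was tested on simulated data first. Alternatives were a pseudocount of 0.1, no filter, median centring, quantile normalization, only the groups compared, a replicate block, no variance trend, and leaving out each library.

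The 9 genes, the pathway and marker lists and the tests were chosen with earlier results of these data known. The rule named all 9 genes, up to 3 genes per pathway list with the smallest p between STZ and control, and up to 3 genes most like each of the 9 by Pearson's r. Of the table's symbols, 20249 (96.5%) matched GENCODE M21. Some genes stand on more than 1 list.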

Additional observations from a re-analysis of the deposited data

Results flagged for a closer look

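For 4 of the 7 tested genes the effect of AOS differed between mice given STZ and mice not given it, by the interaction term in limma. The AOS effect with STZ minus that without it was −1.41 for Gadd45a, where STZ+AOS minus STZ was −1.45 and AOS minus control was −0.04 on the log2(FPKM + 1) scale. It was −1.37 for Casp8, with −1.22 with STZ and 0.14 without. Bax gave −0.79, with −0.75 with STZ and 0.04 without, and Bcl2l11 gave −0.77, with −0.63 with STZ and 0.14 without. The same term was called lower in 29.1% of all tested genes, and in either direction in 35.2%. It uses the same STZ and control libraries as the comparison of STZ with control, so it is not independent of it. STZ+control-FMT, whose label names no AOS, was also lower than STZ. Its log2 fold changes were −1.35 for Gadd45a, −1.13 for Casp8, −0.73 for Bax and −0.7 for Bcl2l11. The part of AOS itself was not tested.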

How the results depend on the processing

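Over 25 other settings (24 for the F test), the number of the 9 genes called was 5 to 7 for STZ against control (6 as reported), 4 to 7 for STZ+AOS (6), 5 to 9 for STZ+AOS-FMT (7) and 5 to 8 for STZ+control-FMT (6) against STZ, and 4 to 6 for the interaction (4). It was 0 in every setting for the 5 comparisons in which no gene was called. These counts take calls in either direction, and the fit without a filter covers 9 genes in place of 7. With median centring the count for STZ against control includes Mdm2, called lower (adjusted p = 0.00063), and no longer Cdkn1a (0.26, adjusted p = 0.085). With a replicate block the count for STZ against control was 6. Libraries of the same number in different groups did not deviate together (45 pairs, r from −0.21 to 0.2, median −0.02). Pairs of different number gave r from −0.36 to 0.33, with a median of 0.01 (90 pairs). Of the 18 libraries, 4 correlated best with their own number in another group. Mdm2 turned direction with median centring: −0.3 for STZ against control, 0.25 for STZ+AOS-FMT and 0.23 for STZ+control-FMT against STZ. Of all genes called between STZ and control, 6118 were higher and 1705 lower as reported, 2678 and 6119 with median centring, and 3156 and 4093 with quantile normalization (medians of all genes 0.17, −0.17 and −0.06). With only the groups compared, 5132 of all genes were called in place of 7823 for STZ against control, and 4944 in place of 7786, 5225 in place of 8011 and 4184 in place of 7257 for STZ+AOS, STZ+AOS-FMT and STZ+control-FMT against STZ. The 6 genes called between STZ+AOS and control became 147 without STZ replicate 1, 14 without STZ replicate 3, 1 without control replicate 2 and 0 without control replicate 1 or STZ+AOS replicate 2.

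List calls between STZ and control moved most with scaling. With median centring p53 regulators gave 0 higher and 6 lower (2 higher as reported), and p53 targets 6 higher and 2 lower (17 higher). BAX-like and BH3-only genes gave 2 higher and 1 lower (5 higher), and death receptor genes 4 higher and 0 lower (8 higher). Caspase and execution genes gave 4 higher and 2 lower (10 higher and 1 lower). With quantile normalization p53 regulators gave 0 higher and 3 lower, and p53 targets 6 higher and 2 lower. Higher calls alone were left for BAX-like and BH3-only genes (2), death receptor genes (3), caspase and execution genes (4) and inhibitor of apoptosis genes (2, against 4 as reported). With only the groups compared the calls were 0 for p53 regulators, 4 for death receptor genes and 5 for caspase and execution genes. Leaving out 1 library gave 0 to 3, 5 to 8 and 6 to 11 calls in either direction for these 3 lists. The cause was not tested. Read depth is unknown, so the counting error of low genes such as Bcl2 and Fas is not known.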

Other observations

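Ratios between the genes were formed within each library. Bax over Bcl2 was 29.3, 32.5 and 50.5 in STZ libraries, against 91.3, 68.3 and 94.6 in control libraries, so the ratio was lower in STZ than in control although both genes were higher there. It was 80.9, 36.3 and 38.3 in STZ+control-FMT libraries, which overlapped the STZ libraries, so a low ratio was not particular to STZ. The STZ+AOS, STZ+AOS-FMT and AOS libraries lay above the STZ range. Bcl2 is given to 2 decimals near 0.1 FPKM, which makes this ratio coarse. Mdm2 over Trp53 was 6.39, 3.36 and 2.99 in STZ libraries, against 6.72, 6.71 and 6.57 in control libraries, and 6.45, 7.89 and 7.15 in STZ+AOS libraries. It was 6.67, 5.92 and 5.82 in STZ+AOS-FMT and 6.41, 7.19 and 6.33 in STZ+control-FMT libraries. STZ replicate 1 lay within the range of both transplant groups. Bcl2l11 over Mcl1, a BH3-only gene over a prosurvival gene, was 0.106, 0.124 and 0.107 in STZ libraries, against 0.0799, 0.0651 and 0.0814 in control libraries. For each ratio the STZ and control libraries did not overlap, and a two-sided exact permutation test gave p = 0.1, the smallest that 3 against 3 libraries allow.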
